A study of Mus musculus with 9 samples.

Results

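The 10 genes described here encode enzymes that make serine, mitochondrial one-carbon units, proline and asparagine: *Phgdh*, *Psat1* and *Psph* of serine synthesis, *Shmt2*, *Mthfd2*, *Mthfd1l* and *Aldh1l2* of the mitochondrial folate pathway, *Aldh18a1* and *Pycr1* of proline synthesis, and *Asns*, asparagine synthetase. They were chosen by name out of 52636 genes counted in left ventricular RNA, with earlier results of these data known. Libraries were also divided by a measured value, the level of *Vdac2*, and the members were chosen for how they follow that division. Differences between *Vdac2*-low and *Vdac2*-high libraries are therefore given as a description, with no test.

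The hearts came from 16-week-old C57BL6J mice, and transmural tissue of the left ventricle was taken. The KO carried floxed *Vdac2* and Cre under the αMHC promoter, which is active in cardiomyocytes, so that other cells of the ventricle keep the gene. The WT were littermates with either the floxed allele or Cre alone, and which of these a given WT library carried is not given in the labels. *Vdac2* encodes a channel of the outer mitochondrial membrane. The 9 libraries comprise 5 that carry the WT label, numbered 1 to 5, and 4 that carry the KO label, numbered 6 to 9, with 27345052 to 44673988 counted reads each.

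The targeted gene goes against several labels. Levels are given as CPM, counts scaled to a common library size after TMM normalization. *Vdac2* (ENSMUSG00000021771, GRCm38 chr14:21825238-21845879) reached 366 and 365 CPM in libraries 2 and 4 (labelled WT) and 384 and 421 CPM in libraries 6 and 8 (labelled KO). Libraries 1 and 5 (labelled WT) held only 20.2 and 21.3 CPM of it, and libraries 7 and 9 (labelled KO) 20.5 and 19.1 CPM. These are the 4 *Vdac2*-high libraries (over 300 CPM) and the 4 *Vdac2*-low libraries (under 100 CPM), and no library was moved to another label. Library 3, labelled WT, had 58.5 CPM of *Vdac2*, and is kept apart because it stood away from the others: its mitochondrially encoded share of counts was 9.07%, against 16.8% to 19.2% in the other 8. All libraries labelled WT were sequenced in lane 1 and all labelled KO in lane 2. *Xist* ranged from 335 to 587 CPM across lane 2 and did not pass 0.152 CPM in lane 1, so label, lane and sex cannot be told apart, whereas each *Vdac2* level held 2 libraries of each lane. In tissue RNA, fewer cells of a type and less RNA per cell cannot be told apart either.

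Serine is made from the glycolytic intermediate 3-phosphoglycerate by PHGDH, PSAT1 and PSPH in turn. In mitochondria, SHMT2 splits serine into glycine and a one-carbon unit carried on tetrahydrofolate, MTHFD2 oxidizes that unit, and MTHFD1L releases it as formate or ALDH1L2 as carbon dioxide. Proline is built from glutamate by ALDH18A1 and the mitochondrial reductase PYCR1, and ASNS makes asparagine from aspartate. Many of these genes are known targets of ATF4, a transcription factor made when amino acids run short or mitochondria are stressed, and *Mthfd2* is best known from embryonic and proliferating cells and is low in most adult tissue.

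ATF4 with a C/EBP partner binds an element whose core can be written TGATGNAA. The stretches of 250 bases before the start of *Asns* and *Pycr1*, which hold this core, and of *Mthfd2*, the member with the largest ratio, are shown as RefSeq gives them for GRCm38.p6, 5′ to 3′ on the strand of the gene. Capitals mark the core, and the genome coordinates are chr6:7693210-7693459, minus strand, for *Asns*, chr11:120643749-120643998, minus strand, for *Pycr1*, and chr6:83317605-83317854, minus strand, for *Mthfd2*.
Asns: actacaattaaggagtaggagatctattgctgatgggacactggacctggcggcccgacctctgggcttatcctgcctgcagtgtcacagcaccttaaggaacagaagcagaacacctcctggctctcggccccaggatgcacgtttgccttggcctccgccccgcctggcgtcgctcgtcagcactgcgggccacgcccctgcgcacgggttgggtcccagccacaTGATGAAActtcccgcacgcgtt
Pycr1: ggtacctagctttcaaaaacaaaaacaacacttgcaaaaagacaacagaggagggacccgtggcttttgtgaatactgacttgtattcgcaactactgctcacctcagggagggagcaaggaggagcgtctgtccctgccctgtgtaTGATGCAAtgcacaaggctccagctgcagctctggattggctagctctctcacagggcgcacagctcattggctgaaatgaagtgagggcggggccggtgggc
Mthfd2: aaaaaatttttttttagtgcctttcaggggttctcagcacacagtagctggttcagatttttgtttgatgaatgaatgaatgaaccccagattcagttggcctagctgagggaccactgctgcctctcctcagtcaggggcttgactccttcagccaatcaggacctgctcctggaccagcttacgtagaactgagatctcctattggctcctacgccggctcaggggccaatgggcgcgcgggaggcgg

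RefSeq's starts of *Asns*, *Pycr1* and *Mthfd2* lie inside the longer gene models of GENCODE, so these windows also lie partly or wholly within those models. In *Asns* the core reads TGATGAAA (chr6:7693225-7693232) and begins 23 bases before the start, and in *Pycr1* it reads TGATGCAA (chr11:120643844-120643851) and begins 103 bases before it. Of the 9 members with an entry, these 2 held the core on either strand in the window of 250 bases before to 50 after the start, and the *Mthfd2* window did not. All RefSeq windows of that length held it in 3.97% of 32851 cases. A match of these letters does not show a bound site, and its absence says nothing of the factor.

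All 10 members passed the filter on low counts. In 7 of them, *Mthfd2*, *Phgdh*, *Asns*, *Psat1*, *Pycr1*, *Aldh1l2* and *Aldh18a1*, every *Vdac2*-low library lay above every *Vdac2*-high library. Over all 16322 genes tested, 7.16% showed that order and 4.93% the opposite one. In 6 of the 7, all but *Aldh18a1*, the medians also differed by at least 2-fold, against 0.876% of all genes. These shares describe the choice of the members and support nothing further. *Mthfd1l*, *Psph* and *Shmt2* overlapped between the levels. The median ratio of *Vdac2*-low to *Vdac2*-high medians was 2.06 over the members and 1.003 over all genes tested.

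**Figure D1:**
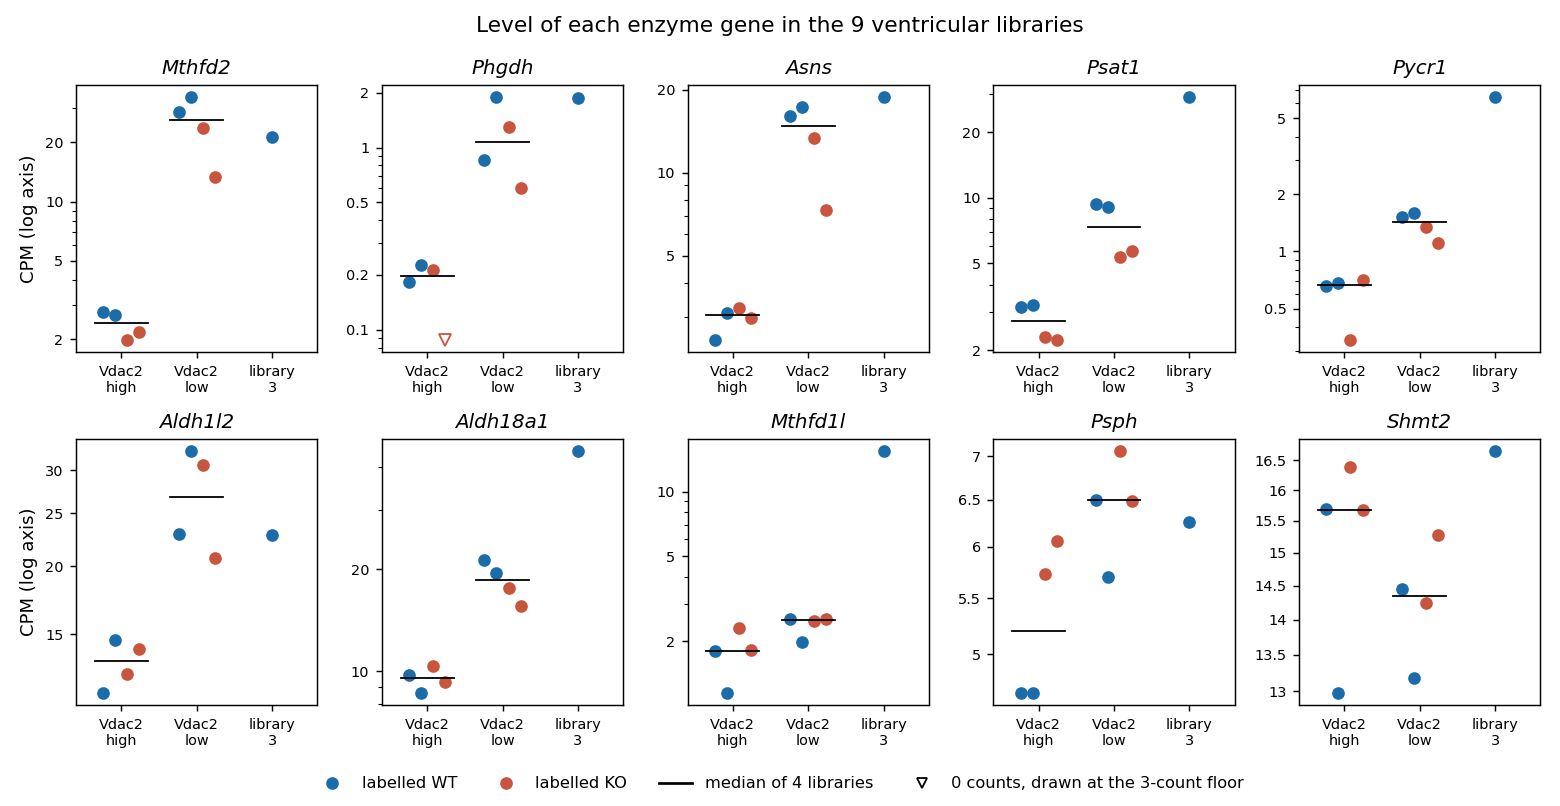
Level of the 10 enzyme genes in the 9 libraries, in CPM on a log axis that differs between panels; points are libraries, coloured by label, and lines are medians of 4 libraries. The *Vdac2*-low points lie wholly above the *Vdac2*-high points for *Mthfd2*, *Phgdh*, *Asns*, *Psat1*, *Pycr1*, *Aldh1l2* and *Aldh18a1*, and library 3 is drawn apart.

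*Mthfd2* (ENSMUSG00000005667, chr6:83305691-83325908, minus strand) encodes the mitochondrial dehydrogenase and cyclohydrolase of one-carbon folates. Over both lanes together it had the largest ratio of the members. It was at 2.74 and 2.66 CPM in *Vdac2*-high libraries 2 and 4 and at 1.99 and 2.18 CPM in *Vdac2*-high libraries 6 and 8. In the *Vdac2*-low libraries it was at 28.4 CPM (library 1), 33.9 CPM (library 5), 23.6 CPM (library 7) and 13.3 CPM (library 9). No *Vdac2*-low library overlapped the *Vdac2*-high ones, the lowest *Vdac2*-low library being 4.84 times the highest *Vdac2*-high one. The ratio of medians was 10.7, with 11.5 within lane 1 and 8.85 within lane 2, each lane giving 2 libraries per level. These values rest on 575 to 1112 reads in each *Vdac2*-low library and 70 to 75 in each *Vdac2*-high one.

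*Aldh1l2* (ENSMUSG00000020256, chr10:83487450-83534140, minus strand), the mitochondrial 10-formyltetrahydrofolate dehydrogenase, was at 11.7, 14.6, 12.7 and 14.1 CPM in *Vdac2*-high libraries 2, 4, 6 and 8. It was at 22.9, 32.6, 30.7 and 20.7 CPM in *Vdac2*-low libraries 1, 5, 7 and 9. The levels did not overlap, and the ratio of medians only just reached 2.00 (2.11 in lane 1 and 1.92 in lane 2). Its exons share 1056 bases with *D10Wsu102e* on the opposite strand, and the strand setting of the counting is not given in the sources used here, so reads of these bases may belong to either gene.

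*Mthfd1l* (ENSMUSG00000040675, chr10:3973118-4167081, plus strand), the mitochondrial formyltetrahydrofolate synthetase that releases formate, ranged from 1.14 to 2.31 CPM in the *Vdac2*-high libraries and from 1.98 to 2.54 CPM in the *Vdac2*-low ones. The levels overlapped, since library 6 was above library 5, and the ratio of medians was 1.38. *Shmt2* (ENSMUSG00000025403, chr10:127517123-127522444, minus strand), which feeds the pathway, was at 13.0 to 16.4 CPM in the *Vdac2*-high and 13.2 to 15.3 CPM in the *Vdac2*-low libraries. The levels overlapped and the ratio of medians was 0.914, the single member with a ratio below 1. Over both lanes together, the first enzyme of the mitochondrial pathway thus had overlapping levels while the second had the largest ratio of all members. Within lane 2 alone, *Shmt2* did not overlap, and *Phgdh* had a ratio of 8.92 against 8.85 for *Mthfd2*.

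Of the serine synthesis genes, *Psat1* (ENSMUSG00000024640, chr19:15904678-15947337, minus strand), the phosphoserine aminotransferase, was at 3.14, 3.23, 2.31 and 2.24 CPM in *Vdac2*-high libraries 2, 4, 6 and 8. In *Vdac2*-low libraries 1, 5, 7 and 9 it was at 9.35, 9.06, 5.38 and 5.70 CPM. There was no overlap, both lane 1 libraries were above both lane 2 libraries at each level, and the ratio of medians was 2.71 (2.89 in lane 1 and 2.44 in lane 2).

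*Phgdh* (ENSMUSG00000053398, chr3:98313170-98339990, minus strand), the dehydrogenase that begins the pathway, was at 0.183, 0.228 and 0.212 CPM in *Vdac2*-high libraries 2, 4 and 6. Library 8 held 0 counts, which allows up to 0.0883 CPM (3 counts, counting error only). The *Vdac2*-low libraries 1, 5, 7 and 9 were at 0.853, 1.89, 1.29 and 0.600 CPM. Again there was no overlap, and the ratio of medians was 5.43, with 6.68 within lane 1 and 8.92 within lane 2, where library 8 holds the 0. These ratios rest on 26 to 62 reads per *Vdac2*-low library and 0 to 8 per *Vdac2*-high one. In all, 47.8% of the 50-base stretches of *Phgdh* also occur in other genes, among them its pseudogene *Phgdh-ps1*, so its level is uncertain.

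*Psph* (ENSMUSG00000029446, chr5:129765558-129787449, minus strand), the phosphatase of the last step, ranged from 4.68 to 6.06 CPM in the *Vdac2*-high libraries and from 5.70 to 7.06 CPM in the *Vdac2*-low ones. The levels overlapped, library 8 lying above library 5, and the ratio of medians was 1.25. With CPM on the raw library total in place of TMM, they did not overlap. *Psph* shares 452 exon bases with *Cct6a* on the opposite strand.

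For proline, *Aldh18a1* (ENSMUSG00000025007, chr19:40550257-40588463, minus strand), which reduces glutamate to pyrroline-5-carboxylate, was at 9.76, 8.60, 10.3 and 9.27 CPM in *Vdac2*-high libraries 2, 4, 6 and 8. It was at 21.3, 19.5, 17.6 and 15.6 CPM in *Vdac2*-low libraries 1, 5, 7 and 9. The levels did not overlap, and the ratio of medians of 1.95 lay just under 2 (2.22 in lane 1 and 1.69 in lane 2). *Pycr1* (ENSMUSG00000025140, chr11:120635712-120643769, minus strand), the mitochondrial reductase of the next step, was at 0.658, 0.685, 0.345 and 0.706 CPM in the *Vdac2*-high libraries in the same order. It was at 1.51, 1.59, 1.34 and 1.11 CPM in the *Vdac2*-low libraries. The levels did not overlap and the ratio was 2.13 (2.31 in lane 1 and 2.33 in lane 2), on 13 to 24 reads per *Vdac2*-high and 46 to 52 per *Vdac2*-low library.

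*Asns* (ENSMUSG00000029752, chr6:7675169-7693254, minus strand) was at 2.49, 3.12, 3.24 and 2.97 CPM in *Vdac2*-high libraries 2, 4, 6 and 8. In *Vdac2*-low libraries 1, 5, 7 and 9 it was at 16.1, 17.3, 13.4 and 7.32 CPM. The levels did not overlap, with library 9 lowest of the *Vdac2*-low libraries, and the ratio of medians was 4.83 (5.95 in lane 1 and 3.33 in lane 2).

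Levels of different genes were compared as CPM per kb of exon. In the *Vdac2*-high libraries *Shmt2* led with a median of 5.04 CPM per kb, followed by *Aldh18a1* (2.34), *Aldh1l2* (1.79), *Psph* (1.20), *Asns* (1.11), *Mthfd2* (0.694), *Psat1* (0.641), *Mthfd1l* (0.408), *Pycr1* (0.171) and *Phgdh* (0.0794). In the *Vdac2*-low libraries *Mthfd2* led with 7.46 CPM per kb, and *Asns* (5.38), *Shmt2* (4.61) and *Aldh18a1* (4.55) followed. *Phgdh*, *Pycr1* and *Mthfd1l*, at 0.431, 0.363 and 0.564 CPM per kb, remained the 3 lowest there. Exon lengths were not corrected for 50-base stretches shared with other genes. The shared part was largest in *Phgdh* (47.8%) and *Aldh1l2* (13.6%), so the places of these genes in the order are uncertain.

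Within lanes, the same 9 members, all but *Shmt2*, had both *Vdac2*-low libraries above both *Vdac2*-high libraries in lane 1 and again in lane 2. Over all genes tested that order held for 24.5% in lane 1, 20.7% in lane 2 and 11.3% in both. The genes that overlapped over 8 libraries, *Mthfd1l* and *Psph*, had within-lane ratios of 1.54 and 1.21, and of 1.30 and 1.15. *Shmt2* had ratios of 0.964 and 0.920. Its levels overlapped in lane 1, and in lane 2 both *Vdac2*-low libraries lay below both *Vdac2*-high ones.

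**Figure D2:**
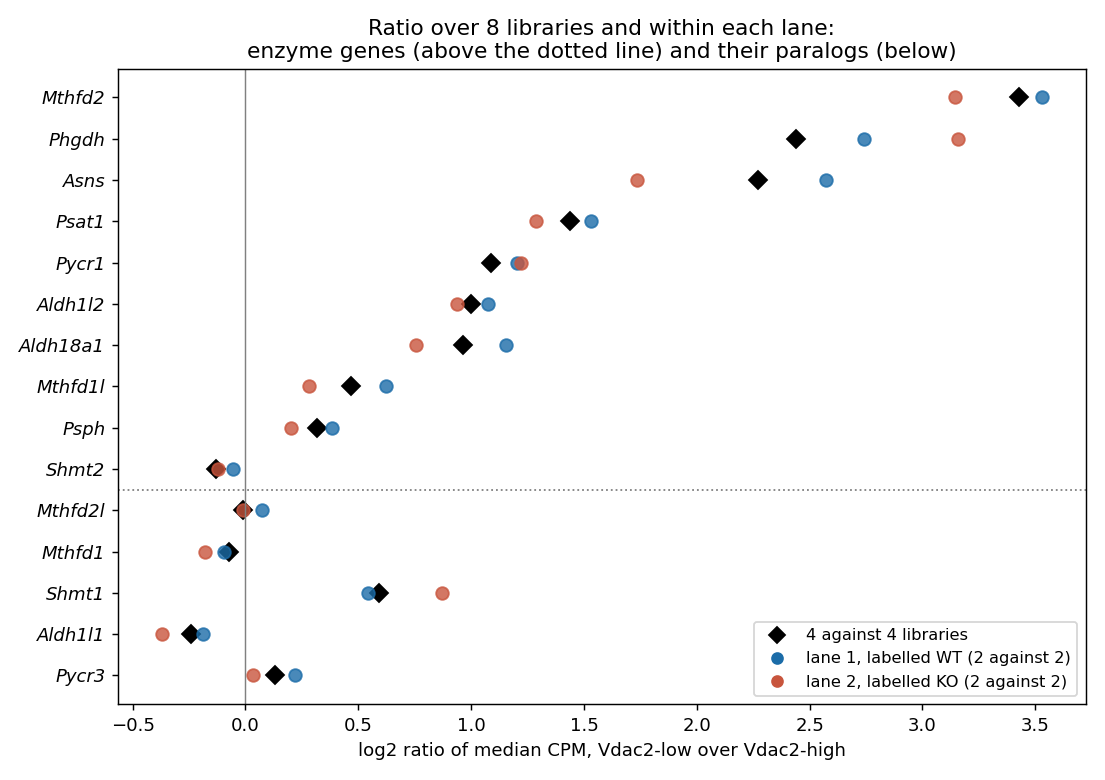
The log2 ratio of the *Vdac2*-low to the *Vdac2*-high median for the 10 enzyme genes and, below the dotted line, 5 paralogs; diamonds use 8 libraries, circles the 4 libraries of 1 lane. *Mthfd2*, *Phgdh*, *Asns*, *Psat1* and *Pycr1* lie above 1 in each lane, and of the paralogs *Shmt1* lies farthest to the right.

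Several members have a paralog, and of 5 such genes 4 overlapped between the *Vdac2* levels, as did 87.9% of all genes tested. *Mthfd2l*, the other mitochondrial dehydrogenase, was at 8.34 to 8.96 CPM in the *Vdac2*-low and 7.46 to 9.003 CPM in the *Vdac2*-high libraries, and the levels overlapped. *Mthfd1*, the cytosolic folate enzyme, was at 32.0 to 43.4 and 37.2 to 49.4 CPM, *Aldh1l1* at 2.21 to 3.20 and 2.997 to 3.69 CPM, and *Pycr3* at 8.46 to 11.4 and 8.01 to 10.3 CPM, all overlapping. *Shmt1*, the cytosolic serine hydroxymethyltransferase, was at 12.6 to 24.9 CPM in the *Vdac2*-low and 9.18 to 11.6 CPM in the *Vdac2*-high libraries, a ratio of 1.51 without overlap. Among these hydroxymethyltransferases the cytosolic gene was separated over both lanes together and the mitochondrial member was not.

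A list of 71 other genes of folate, serine, glycine, proline and related amino acid metabolism was drawn up, of which 59 passed the filter. In 6 of them the *Vdac2*-low libraries were wholly above, in 6 wholly below, and in 47 the levels overlapped, 10.2% in each direction, against 7.16% above and 4.93% below of all genes tested. None of the 59 was wholly above by at least 2-fold. The median ratio was 0.994. The 6 above were *Slc1a4*, a carrier of serine and other neutral amino acids (ratio 1.80, 3.19 to 4.38 against 1.61 to 2.62 CPM), *Shmt1*, *Folr2* (1.40), *Ggh* (1.23), *Sptlc2*, a subunit of serine palmitoyltransferase (1.17), and *Pgk1* (1.17). The 6 below were the alanine aminotransferase genes *Gpt* (0.711) and *Gpt2* (0.925), *Dld* (0.851), *Aldh4a1* of proline breakdown (0.874), *Gcat* (0.874) and the reduced folate carrier gene *Slc19a1* (0.906). *Aldh4a1* was at 50.4 to 56.5 CPM in the *Vdac2*-low and 59.3 to 65.2 CPM in the *Vdac2*-high libraries.

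Other genes of the amino acid and mitochondrial stress response were looked at from a list of 20, of which 19 passed the filter. In 11 of the 19 the *Vdac2*-low libraries were wholly above the *Vdac2*-high ones and in 1, *Vldlr* (ratio 0.783), wholly below, against the same shares of 7.16% and 4.93%. These genes too were chosen with results known. In the other 7 genes tested the levels overlapped. The largest ratio of the 19, 6.82, was that of a gene whose levels overlapped. *Atf4* itself was at 83.1 to 114 CPM in the *Vdac2*-low and 55.3 to 73.9 CPM in the *Vdac2*-high libraries, a ratio of 1.30. The ratio was 2.88 for *Atf5*, a related factor, 3.30 for *Trib3*, a feedback inhibitor of ATF4, 2.33 for *Chac1*, 1.24 for *Ddit3*, and 4.78 for the secreted factor *Gdf15*. It was 2.71 for the amino acid transporter gene *Slc7a5*, 1.40 for its partner *Slc3a2*, 2.43 for *Myc*, 1.58 for *Sesn2* and 1.39 for *Nupr1*. Some of these genes were separated only narrowly. The lowest *Vdac2*-low library was 1.11 times the highest *Vdac2*-high one for *Trib3*, 1.06 times for *Chac1* and 1.02 times for *Ddit3*. For *Atf4* and *Atf5* it was 1.13 and 1.65 times. The ratio of *Trib3* was 5.05 within lane 1 and 1.94 within lane 2.

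Library 3 was above every *Vdac2*-high library in all 10 members, an order that 41.9% of all genes tested also showed. It was also above every *Vdac2*-low library in 6 members, against 40.1% of all genes tested. *Mthfd1l* was at 15.5 CPM there, 6.21 times the *Vdac2*-low median, *Pycr1* at 6.45 CPM (4.52 times), *Psat1* at 28.9 CPM (3.92 times) and *Aldh18a1* at 44.8 CPM (2.42 times). *Asns*, at 18.8 CPM, and *Shmt2*, at 16.7 CPM, were close to the highest of the other libraries. *Mthfd2* (21.3 CPM), *Aldh1l2* (22.9 CPM), *Psph* (6.26 CPM) and *Phgdh* (1.86 CPM) stayed within the *Vdac2*-low range.

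Of the 19 stress response genes tested, library 3 was above every *Vdac2*-low library in 10, against the 40.1% of all genes tested, among them *Slc7a5* (13.8 CPM), *Slc3a2* (61.8 CPM) and *Nupr1* (11.1 CPM). *Trib3*, *Atf5* and *Chac1* stood in library 3 at 1.51, 11.8 and 2.35 CPM, within or below the *Vdac2*-high ranges of 1.06 to 1.54, 10.1 to 11.9 and 3.24 to 5.36 CPM. *Gdf15*, at 33.5 CPM, and *Myc*, at 15.2 CPM, were above those in the other 8 libraries, the highest of which held 2.99 and 3.45 CPM.

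**Figure D3:**
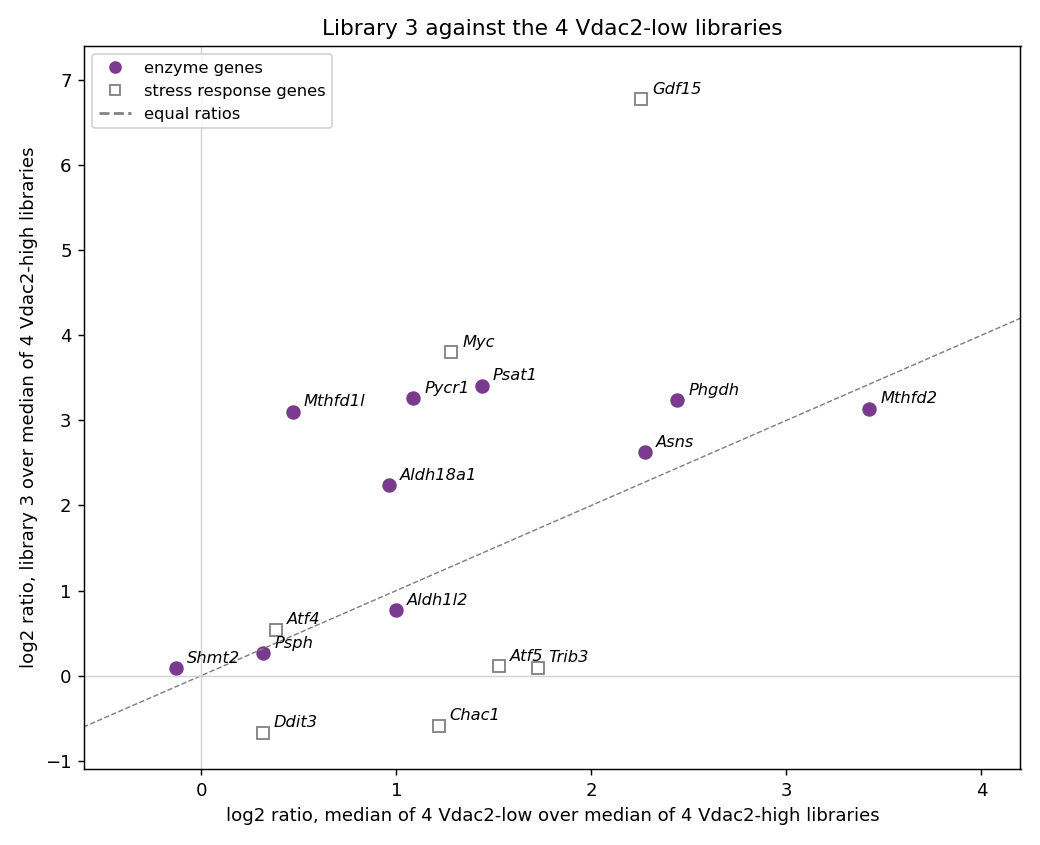
Each gene's log2 ratio in library 3 (vertical) against the median of the 4 *Vdac2*-low libraries (horizontal), both over the *Vdac2*-high median; filled circles are the 10 enzyme genes and squares 7 genes of the stress response. *Mthfd1l*, *Pycr1*, *Psat1* and *Aldh18a1* lie well above the line of equal ratios, and *Mthfd2*, *Aldh1l2*, *Trib3*, *Atf5*, *Ddit3* and *Chac1* below it.

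Markers of other cell types were compared between the *Vdac2* levels in the same way, against the shares of 7.16% wholly above and 4.93% wholly below over all genes tested. Of 10 cardiomyocyte markers 3 were wholly lower in the *Vdac2*-low libraries and 7 overlapped, and their summed level was 141633 to 153449 CPM against 161504 to 176888 CPM. Cardiomyocyte markers were thus abundant in every library, the sum in library 3 being 55000 CPM. Of 10 macrophage markers 6 were wholly higher, with sums of 607 to 849 against 376 to 552 CPM, and of 10 fibroblast markers 5 were, with sums of 1602 to 1643 against 1090 to 1383 CPM. Of 9 proliferation genes tested 7 were wholly higher, with sums of 46.0 to 52.7 against 21.9 to 30.2 CPM. In library 3 the macrophage, fibroblast and proliferation sums were 1892, 5616 and 584 CPM. Of 10 endothelial markers 2 were wholly lower and 8 overlapped (1217 to 1501 against 1439 to 1633 CPM), of 10 smooth muscle and pericyte markers 1 was and 9 overlapped, with overlapping sums, and of 6 lymphocyte markers tested none was separated (sums of 2.66 to 4.24 against 2.56 to 3.77 CPM). Of 4 atrial markers tested 2, *Nppa* and *Myl4*, were wholly higher and all 4 had a ratio above 1, with sums of 266 to 1677 against 191 to 242 CPM and 3417 CPM in library 3, most of it *Nppa*. *Sln*, also on that list, did not pass the filter and held at most 3 counts in any library. The part of other cell types in the enzyme genes' levels was not tested.

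The contrast that the labels give, 4 labelled KO against 5 labelled WT, asks which genes change when *Vdac2* is deleted, but *Vdac2* does not separate these labels. By the quasi-likelihood test of edgeR, adjusted by the Benjamini-Hochberg method over all genes tested, 0 of the 10 members had an adjusted p under 0.05, against 9 genes or 0.0551% of those tested, and 0 had an unadjusted p under 0.05, against 997 genes or 6.11%. In DESeq2, which gave *Mthfd1l* no p, 0 of the other 9 had an adjusted p under 0.05, against 0.443% of all genes with one, and 1, *Psat1*, had an unadjusted p under 0.05, against 8.43%. Over all 9 libraries *Psat1* had the largest log2 fold change of the members in size. Its mean was 10.7 ± 10.6 CPM (SD, n = 5) under the WT label and 3.91 ± 1.89 CPM (SD, n = 4) under the KO label. This gave a log2 fold change of -1.46, with a standard error of 0.69 and an adjusted p of 0.68 in edgeR. *Pycr1*, at -1.32 (standard error 0.73), and *Mthfd1l*, at -1.01 (standard error 0.75), followed. Library 3 carried much of these 3 values, which were -0.67 for *Psat1*, -0.36 for *Pycr1* and 0.29 for *Mthfd1l* without it, when *Mthfd2* had the lowest estimate, -0.73. Without library 7, labelled KO, the estimates were -1.85 for *Phgdh* and -1.61 for *Mthfd2*, against -0.94 and -0.80 over all libraries. *Psph* and *Shmt2* had estimates above 0, of 0.19 (standard error 0.15) and 0.077 (standard error 0.10). The median log2 fold change of the members was -0.79, against -0.018 over all genes tested. Adjusted p-values of the members ran from 0.68 to 0.92 in edgeR, and the lowest in any alternative was 0.51, for *Psat1* in DESeq2. These p-values set the difference between the labels against the spread between libraries of the same label. Each label here mixes both *Vdac2* levels.

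**Figure D4:**
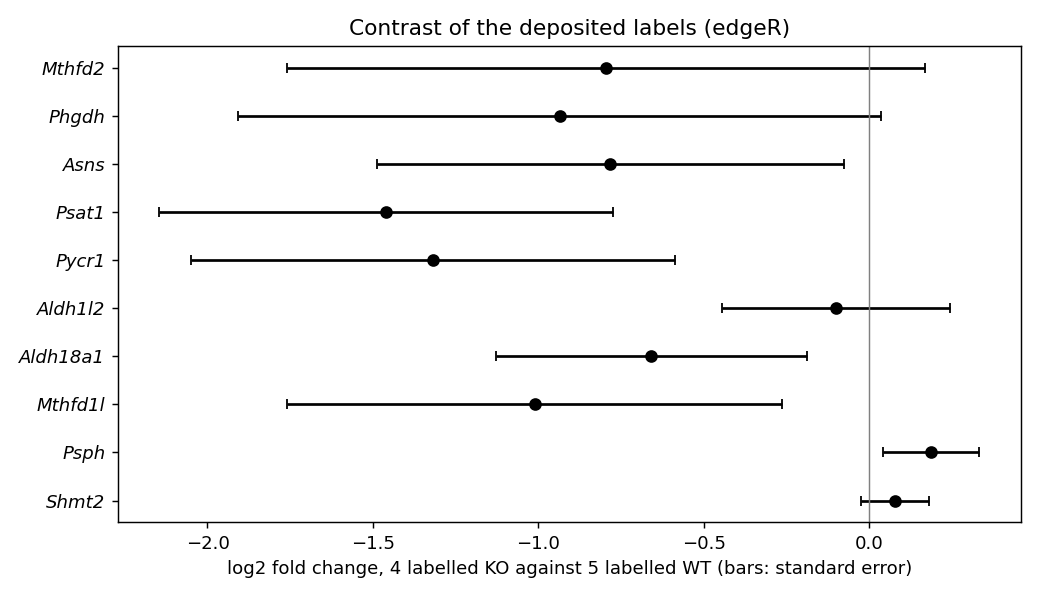
The log2 fold change of each enzyme gene, 4 libraries labelled KO against 5 labelled WT, from edgeR, with bars of 1 standard error. *Psat1* and *Pycr1* lie lowest at -1.46 and -1.32, and no member had an adjusted p under 0.05.

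Among other genes with a mean of at least 1 CPM, those whose level over the 9 libraries was most like the mean standardized level of the members were *Sulf2* (Pearson's r = 0.99), *Man2b2* (0.99), *Gclc* (0.98), *Il3ra* (0.97), *Cars* (0.97), *Yars* (0.96), *Naaa* (0.96), *Pmp22* (0.96), *Abi2* (0.95) and *Eda2r* (0.95). *Cars* and *Yars* encode the tRNA synthetases for cysteine and tyrosine, and *Gclc* the catalytic subunit of the enzyme that begins glutathione synthesis. *Cars* was at 20.6 to 25.2 CPM in the *Vdac2*-low, 16.3 to 18.9 CPM in the *Vdac2*-high libraries and 32.7 CPM in library 3. *Gclc* was at 18.8 to 20.0, 16.6 to 17.8 and 22.3 CPM. All 10 had *Vdac2*-low libraries wholly above *Vdac2*-high ones, against 7.16% of all genes tested, with ratios of 1.17 to 1.61. That order follows from their choice by likeness to members that were themselves chosen for it. The likeness is a description over libraries that share lanes and *Vdac2* levels, and without library 3 the first 10 genes shared 4 with this list.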

How the data were processed

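The authors extracted total RNA (miRNeasy), removed ribosomal RNA (Ribo-Zero Gold), prepared stranded libraries and sequenced 50-base single-end reads. Their processing notes name STAR 2.7.2c, featureCounts 1.6.3, DESeq2 and GRCm38, and the authors deposited raw counts per Ensembl gene, with no normalization. The sources used here do not give the annotation release, the strand setting or how multiply aligned reads were treated. The study set aside a WT library with poor RNA without naming it, so all 9 libraries were used. Coordinates and exon lengths are from GENCODE M21 on GRCm38, and symbols were found for 52403 of 52636 genes.

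Genes were filtered by filterByExpr on the labels (16322 kept), normalized by TMM and fitted with the robust quasi-likelihood test of edgeR 4.0.16 under R 4.3.3. P-values were adjusted over all genes tested (Benjamini-Hochberg). The script was tested on simulated data. Groups for this test came from the genotype labels. *Vdac2*-low and *Vdac2*-high libraries were selected on a measured value, as were the members, so they were described by library, range and ratio of medians, with no test. The members and the lists of genes were chosen with earlier results of these data known. Genes named from the lists were those whose *Vdac2*-low and *Vdac2*-high libraries did not overlap, at most 12 a list, the paralogs shown with any value, and the 10 most alike by Pearson's r of log2(CPM + 0.5). Genes of the lists that did not pass the filter are not counted, and some genes are not reported here. Totals ran from 27345052 to 44673988 counts, and 3 counts corresponded to 0.0693 to 0.114 CPM, a limit of counting error only. Alternatives were DESeq2 1.42.0, other normalizations, other filters, leaving out mitochondrially encoded genes, each library left out in turn and values within lanes.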

Additional observations from a re-analysis of the deposited data

How the results depend on the processing

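The count of members without overlap between *Vdac2* levels, 7, was 8 with CPM on raw totals and 7 to 9 with 1 library left out. Within lanes, where 2 libraries a level separate more easily, 7812 (lane 1) and 6168 (lane 2) of all genes did not overlap, against 1973 over 8 libraries, as did 32 and 25 of the other pathway genes, against 12. The ratios of single members moved by under 1.5 times when any 1 library was left out. Between the labels, 70 genes of all tested had an adjusted p under 0.05 in DESeq2 and 9 in edgeR, and the edgeR count ran from 5 (without library 1, 2 or 4) to 62 (without library 3), the cause not being tested. The count of members stayed at 0 in all 15 alternatives run. With 1 library left out, the log2 fold change of *Mthfd1l* ran from -1.26 to 0.29 (without library 3) and that of *Aldh1l2* from -0.40 to 0.11, above 0 without library 5, 6 or 8. The other 136 values for single members kept their sign with no p past the threshold (*Mthfd1l* had none in DESeq2), although leaving out library 3 or library 7 moved some by over 1.5 times as given above. Of the 10 genes most like the members, 4 remained without library 3 and 1 with Spearman's correlation. No paired analysis was possible because the labels give the groups no shared replicate numbers. At 0 to 8 reads, *Phgdh* in the *Vdac2*-high libraries is limited by low counts. How far depth or the stretches it shares with other genes account for them was not tested.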

Other observations

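Within the 4 *Vdac2*-low libraries, which all held 19.1 to 21.3 CPM of *Vdac2*, the 7 separated enzyme genes did not share 1 level. Library 5 was highest in 5 of the 7 and library 1 in the other 2, while library 9 was lowest in 6 and library 7 in 1, *Psat1*. Over all genes tested, library 5 was the highest of the 4 in 20.9%, library 1 the highest in 21.3%, library 9 the lowest in 33.2% and library 7 the lowest in 22.6%. The share of all genes with library 1 or 5 highest and library 7 or 9 lowest together was not counted. Libraries 1 and 5 are from lane 1 and labelled WT, and libraries 7 and 9 from lane 2 and labelled KO, so the highest and lowest places fell by lane, sex and label, which cannot be told apart. The places between did not in *Aldh1l2* and *Phgdh*, in which library 7 (30.7 and 1.29 CPM) was above library 1 (22.9 and 0.853 CPM). *Nppa*, which encodes atrial natriuretic peptide and rises in stressed ventricle, had another order, with 157 CPM in library 5, 401 CPM in library 7, 951 CPM in library 1 and 1523 CPM in library 9. *Atf4* was at 114 CPM in library 5, 91.0 CPM in library 1, 86.1 CPM in library 7 and 83.1 CPM in library 9, both lane 1 libraries being above both lane 2 libraries. The highest level of 5 of the 7 enzyme genes thus stood in the library with the most *Atf4* and the least *Nppa* of the 4, which is a description of 4 libraries without a test.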
